A study of Homo sapiens with 4 samples.

Results

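The cation-chloride cotransporters of the SLC12 family and the WNK pathway kinases that control them were examined in RNA-seq libraries. The labels give the molecule as total RNA and the libraries as RNA-seq, but their extraction text describes an antibody pull-down of chromatin, a mismatch that the sources used here do not resolve. The cells carry the label HepG2, which is an established human liver cancer line. The group held 9 genes, of 57768 gene entries in all: 6 transporter genes (SLC12A1, SLC12A2, SLC12A3, SLC12A4, SLC12A7 and SLC12A9) and 3 kinase genes (WNK1, STK39 and OXSR1). The genes were taken by symbol after their GENCODE identifiers had been matched to a symbol table. SLC12A3 was included because its level was far lower in one genotype than in the other in these same libraries, so its values are given as a description with no test. There were 2 WT libraries and 2 C/EBPβ enh-/- libraries (written enh-/- from here on), the latter from cells in which CRISPR/Cas9 had removed both copies of an enhancer of C/EBPβ. All cells were grown in Dulbecco's modified Eagle's medium with fetal bovine serum, with no other treatment given in the labels. Whether the enh-/- libraries came from 1 clone, and whether the libraries of a genotype came from separate cultures, is not given in the sources used here. The p-values therefore measure only the spread between these libraries, which may be technical. The question was how the transporters and their kinases differed between enh-/- and WT cells.

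SLC12 proteins carry chloride across the plasma membrane together with sodium, potassium or both, and so set cell volume and intracellular chloride. SLC12A1 (NKCC2) and SLC12A2 (NKCC1) move sodium, potassium and chloride inward, SLC12A3 (NCC) moves sodium and chloride inward, and SLC12A4 (KCC1) and SLC12A7 (KCC4) move potassium and chloride outward. WNK kinases respond to chloride and osmotic stress and activate the kinases SPAK (STK39) and OSR1 (OXSR1), which phosphorylate the inward transporters to switch them on and the potassium-chloride transporters to switch them off. SLC12A3 is best known as the thiazide-sensitive transporter of the distal convoluted tubule of the kidney, and SLC12A1 as the loop-diuretic target of the thick ascending limb.

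The upstream sequences of the 3 members whose libraries did not overlap between genotypes are shown first, to compare SLC12A3 with SLC12A7 and WNK1. Such separation was common, at 52.6% of all tested genes. Each is the 250 bases that precede the gene start in RefSeq on GRCh38.p14, written 5′ to 3′ on the strand of the gene. Capitals mark matches to TATAAA, the core of the TATA box. The window lies at chr16:56864957-56865206 on the plus strand for SLC12A3, at chr5:1112064-1112313 on the minus strand for SLC12A7 and at chr12:752329-752578 on the plus strand for WNK1.
SLC12A3: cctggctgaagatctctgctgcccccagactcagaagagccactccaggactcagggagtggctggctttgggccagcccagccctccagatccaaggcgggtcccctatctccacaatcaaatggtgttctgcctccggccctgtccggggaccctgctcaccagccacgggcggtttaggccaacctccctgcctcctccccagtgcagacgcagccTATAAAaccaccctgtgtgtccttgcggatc
SLC12A7: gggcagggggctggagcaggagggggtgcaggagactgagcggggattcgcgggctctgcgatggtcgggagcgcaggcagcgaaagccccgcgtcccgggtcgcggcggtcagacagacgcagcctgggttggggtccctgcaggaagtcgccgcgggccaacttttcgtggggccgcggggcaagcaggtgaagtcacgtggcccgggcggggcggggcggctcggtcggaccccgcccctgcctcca
WNK1: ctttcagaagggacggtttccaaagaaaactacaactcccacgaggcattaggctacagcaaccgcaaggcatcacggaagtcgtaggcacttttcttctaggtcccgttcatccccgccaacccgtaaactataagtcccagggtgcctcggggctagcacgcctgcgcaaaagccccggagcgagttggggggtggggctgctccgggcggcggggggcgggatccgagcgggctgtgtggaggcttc
Searched on both strands, TATAAA occurred in the SLC12A3 window, beginning 31 bases before the start, and in no other of the 13 windows that RefSeq gives for the 9 members. It occurred in 10.7% of 35116 upstream windows of the same length. The letters TTGCNNAA, a common form of the C/EBP motif, occurred in 1 of the 13 windows, that of a start of SLC12A4, against 9.05% of all windows. These letters were thus absent from the 3 windows shown, which covers neither more distant sequence nor other forms of the motif. CCAAT occurred in 3 of the 13 windows, against 32.0% of all, and these motifs share no overlapping matches in the windows shown. SLC12A3 had 7 CpG sites in its window, SLC12A7 had 28 and WNK1 had 19, and the median over all windows was 11.

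The authors deposited 1 FPKM value (fragments scaled to library size and length of transcript) for each gene in each library. The spacing of low values gave a rough reading of depth, of about 38800000 and 43500000 fragments for WT and 22000000 and 48000000 for enh-/- libraries, the lowest being enh-/- library 1. CEBPB, the gene the enhancer acts on, had 30.6 and 19.2 FPKM in WT against 12.4 and 11.8 in enh-/- libraries, both of the latter lower. This gave a log2 fold change of -0.94 (standard error, SE, 0.27, adjusted p = 0.125, limma with Benjamini-Hochberg correction), which missed the threshold of 0.05 and was -0.62 without WT library 1. None of the 15 hepatocyte markers examined, among them ALB, TTR and SERPINA1, reached an FPKM of 1 in any of the 4 libraries. These values go against the HepG2 label, in both genotypes, so the comparison is one between libraries that carry that label. CPS1, a urea cycle gene of hepatocytes that was outside this list and was chosen after its values had been seen, had 608 and 417 in WT against 242 and 360 in enh-/- libraries. Genotypes were compared on log2(FPKM + 1) with limma over the 12491 genes whose mean FPKM reached 1, a scale that understates changes of low genes. Of these, 151 (1.21%) were lower and 31 (0.248%) higher in enh-/- cells at an adjusted p under 0.05, and the median log2 fold change over all tested genes was -0.14. The number lower was 61 with equal totals, 62 with equal upper quartiles, 68 with centring on medians, 93 with a replicate block and 0 without the filter, so the background of 1.21% depends on these choices. Both enh-/- values lay below both WT values in 37.5% of the tested genes and above both in 15.1%, so separation of the libraries alone was common. An exact permutation test of 2 libraries against 2 cannot give a two-sided p below 0.333.

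SLC12A3 (ENSG00000070915.5) spans positions 56899119 to 56949762 of chromosome 16 (GRCh37, plus strand, the build of all gene positions given here) and has up to 26 exons per annotated transcript. Its FPKM was 45.7 and 37.5 in libraries 1 and 2 of WT cells, against 0.160 and 0.688 in those of enh-/- cells. The WT libraries were both high and close to each other, and the enh-/- libraries were both low, with no overlap. WT cells had a mean of 41.6 ± 5.79 (SD, n = 2) and enh-/- cells one of 0.424 ± 0.373 (SD, n = 2), 98.1 times lower. Over the 4 pairings of a WT with an enh-/- library, this ratio ran from 54.5 to 285. On the scale of log2(FPKM + 1), the log2 fold change was -4.92, and the differences of the 4 pairings lay between -5.33 and -4.51. Within a genotype, the log2(FPKM + 1) values differed by 0.28 between the WT libraries and by 0.54 between the enh-/- libraries. For values as low as those of the enh-/- libraries, this scale makes differences smaller than the ratios of FPKM do. These values chose the gene and are not tested.
SLC12A3 was 4.29 times higher in enh-/- library 2 than in library 1. The remaining level thus differed more between the enh-/- libraries than the high level did between the WT libraries, where the ratio was 1.22. Of 5741 gene entries above an FPKM of 10 in both WT libraries, 7 were below 1 in both enh-/- libraries, SLC12A3 among them. Outside these 5741, 4 entries were above 10 in both enh-/- libraries and below 1 in both WT libraries. The total above 10 in both enh-/- libraries was not counted. In bulk libraries, fewer cells with the transcript and less transcript per cell cannot be told apart.

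Neither sodium-potassium-chloride transporter was separated by genotype. SLC12A1 (ENSG00000074803.13, chromosome 15) was hardly detected, with an FPKM of 0.316 and 0.0780 in WT against 0.128 and 0.101 in enh-/- libraries, and was not tested because its mean lay below 1. SLC12A2 (ENSG00000064651.9, chromosome 5 from 127419458 to 127525369), the member of this class found in most cell types, had 2.46 and 2.92 in WT against 5.09 and 2.32 in enh-/- libraries. The enh-/- libraries lay on either side of both WT libraries. The log2 fold change was 0.29, with a 95% interval from -0.51 to 1.08 (adjusted p = 0.667, limma), and it turned to -0.15 without enh-/- library 1. The interval thus includes values on both sides of 0.

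Of the potassium-chloride transporters, SLC12A7 was separated by genotype and SLC12A4 was not. SLC12A7 (ENSG00000113504.15, chromosome 5 from 1050499 to 1112178, minus strand) had an FPKM of 4.76 and 1.12 in WT against 8.27 and 16.3 in enh-/- libraries. Both enh-/- values lay above both WT values, in the direction opposite to SLC12A3, but the libraries of each genotype differed widely. WT cells had a mean of 2.94 ± 2.57 (SD, n = 2) and enh-/- cells one of 12.3 ± 5.70 (SD, n = 2), a ratio of 4.19. The log2 fold change was 1.86 (SE 0.51, 95% interval from 0.65 to 3.07, adjusted p = 0.115, limma), which did not pass the threshold of 0.05. On the log2 scale the WT libraries differed by 1.44, more than the smallest difference of 0.69 between an enh-/- and a WT library. Without WT library 2, the log2 fold change was 1.14, and without WT library 1 it was 2.58.
SLC12A4 (ENSG00000124067.12, chromosome 16 from 67977377 to 68003504, minus strand), the broadly expressed transporter of this class, had 10.9 and 21.5 in WT against 14.8 and 16.9 in enh-/- libraries. The enh-/- values both lay between the WT values. The log2 fold change was 0.04, with a 95% interval from -0.74 to 0.82 (adjusted p = 0.955, limma). Its sign changed when WT library 1 was left out, to -0.42. SLC12A9 (ENSG00000146828.13, chromosome 7), a family member whose transport function is less well defined, had 4.15 and 5.24 against 2.89 and 4.79. These ranges overlapped, and the log2 fold change was -0.26 with an interval from -0.92 to 0.41 (adjusted p = 0.648, limma).

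The kinases were all expressed, and WNK1 was the one separated by genotype. WNK1 (ENSG00000060237.12, chromosome 12 from 861745 to 1020618, plus strand), the first kinase of the cascade, had an FPKM of 45.4 and 43.5 in WT against 18.5 and 27.8 in enh-/- libraries. The WT values were nearly equal and both enh-/- values lay below them. WT cells had a mean of 44.5 ± 1.34 (SD, n = 2) and enh-/- cells one of 23.1 ± 6.58 (SD, n = 2), a ratio of 0.520. The log2 fold change was -0.94 (SE 0.26, 95% interval from -1.55 to -0.33, adjusted p = 0.115, limma), which missed the threshold. When the libraries were centred on their medians, it was -0.77. WNK1 has a kidney form that lacks the kinase domain and starts at another promoter, and values per gene do not separate the forms.
STK39 (ENSG00000198648.6, chromosome 2), which encodes SPAK, had 8.61 and 7.22 in WT against 5.40 and 7.50 in enh-/- libraries. The ranges overlapped, with a log2 fold change of -0.27 (95% interval from -0.85 to 0.31, adjusted p = 0.570, limma). OXSR1 (ENSG00000172939.4, chromosome 3), which encodes OSR1, had 16.4 and 14.3 against 16.7 and 12.7, with overlapping libraries. Its log2 fold change was -0.06 (95% interval from -0.62 to 0.50, adjusted p = 0.904, limma), with a sign that turned to 0.11 after centring on the library medians.

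Of the 8 members other than SLC12A3, 7 were tested, and 0 passed the adjusted threshold in limma, against a background of 1.21% lower and 0.248% higher. At an unadjusted p under 0.05, WNK1 was lower and SLC12A7 higher, as were 16.9% and 3.86% of all tested genes. The libraries overlapped in 5 of the 7, against 47.4% of all tested genes. The median log2 fold change of the 7 was -0.06, against -0.14 over all tested genes, and ran from -0.16 to -0.05 when single libraries were left out. With centring on the library medians it turned to 0.11, and with equal upper quartiles to 0.13. The median over all tested genes also turned, to 0.0345 and 0.0348.

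**Figure D1:**
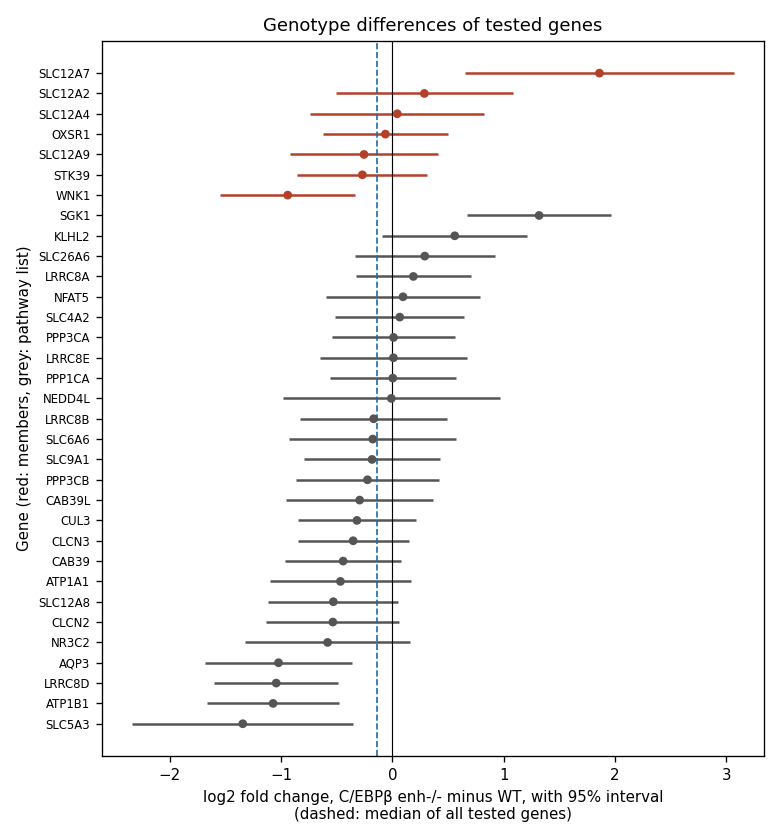
Log2 fold change between enh-/- and WT cells (x axis) with its 95% limma interval for the 7 tested members other than SLC12A3 (red) and 26 tested genes of the wider pathway (grey), each a row on the y axis. The intervals of SLC12A7 and SGK1 lie above 0, and those of WNK1, AQP3, LRRC8D, ATP1B1 and SLC5A3 below it, but none of these genes passed the adjusted threshold.

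FPKM is scaled for length, so the levels of the members can be ordered. In WT cells WNK1 and SLC12A3 were the highest, with means of 44.5 and 41.6 and overlapping libraries. SLC12A4 (16.2) and OXSR1 (15.3) followed and overlapped each other, then STK39 (7.92), which was separate from its neighbours in this order. SLC12A9 (4.69), SLC12A7 (2.94) and SLC12A2 (2.69) came next, each overlapping the next in this order, while SLC12A1 (0.197) was the lowest. In enh-/- cells WNK1 was still the highest, with a mean of 23.1, followed by SLC12A4 (15.9), OXSR1 (14.7) and SLC12A7 (12.3). In this run SLC12A4 overlapped OXSR1 and OXSR1 overlapped SLC12A7. STK39 (6.45) was separate from its neighbours, and SLC12A9 (3.84) and SLC12A2 (3.71) overlapped. SLC12A3 (0.424) stood above only SLC12A1 (0.115), with its libraries separate from those of its neighbours on both sides.

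The make-up of the family changed with the level of SLC12A3. Over 8 SLC12 genes, the 6 transporter members with SLC12A5 and SLC12A8, the FPKM sum was 72.3 and 72.8 in WT against 33.8 and 44.2 in enh-/- libraries. SLC12A3 made up 63.2% and 51.5% of it in WT but 0.474% and 1.55% in enh-/- libraries. Without SLC12A3, the sum was 26.6 and 35.3 in WT against 33.6 and 43.6 in enh-/- libraries, so the ranges overlapped. The potassium-chloride transporters SLC12A4, SLC12A5 and SLC12A7 summed to 15.8 and 23.1 in WT and 23.5 and 33.6 in enh-/- libraries. Without SLC12A7, these sums were 11.1 and 22.0 against 15.2 and 17.3, so the enh-/- values lay between the WT values. SLC12A4 held the largest share of the 8 genes in enh-/- cells, 43.7% and 38.3%, followed by SLC12A7, with 24.5% and 36.9%. The shares use the values that chose SLC12A3 and are a description.

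A wider list of 41 genes was examined for other parts of the pathway: further SLC12 and WNK genes, the proteins that degrade or activate the kinases, and channels, pumps and exchangers of sodium, potassium, chloride and osmolytes. Of these, 26 were tested, and 0 passed the adjusted threshold in limma, with 4 lower (15.4%, background 16.9%) and 1 higher (3.85%, background 3.86%) at an unadjusted p under 0.05, shares near those of all tested genes. Both enh-/- values lay below both WT values in 13 (50.0%, background 37.5%) and above both in 3 (11.5%, background 15.1%). The median log2 fold change was -0.20, against -0.14 for all tested genes. Of the 26, CAB39L and NR3C2 reached the filter on low values only through WT, and the other 24 had a median of -0.18, with both enh-/- values below both WT values in 11 (45.8%).
Among the regulators, SGK1, an aldosterone-induced kinase that acts on NEDD4L, was abundant in every library. Its FPKM was 166 and 137 in WT against 470 and 303 in enh-/- libraries, and both enh-/- values were above both WT values, with a log2 fold change of 1.32 (SE 0.27, adjusted p = 0.0706, limma). NEDD4L, a ubiquitin ligase that lowers sodium transporters at the membrane, had 17.4 and 13.6 against 24.2 and 9.53, with the enh-/- libraries on either side of the WT libraries.
WNK4, the kinase best known as a regulator of SLC12A3 in the kidney, was at most 0.225 in any library, and WNK2 and WNK3 were at most 0.699 and 0.0481. WNK1 was thus the only WNK gene above an FPKM of 1 in these libraries. KLHL3 and CUL3 form the ubiquitin ligase that degrades WNK kinases. KLHL3 had 1.28 and 1.01 in WT against 0.495 and 1.06 in enh-/- libraries, and its mean over the 4 libraries lay below 1. CUL3 had 11.5 and 14.1 against 9.61 and 10.4, with a log2 fold change of -0.32 (adjusted p = 0.454, limma). KLHL2, a relative of KLHL3, had 2.67 and 3.38 against 6.08 and 3.92, with a log2 fold change of 0.56 (adjusted p = 0.295, limma).
The MO25 scaffold proteins raise the activity of SPAK and OSR1. CAB39 had 13.9 and 13.02 in WT against 10.6 and 8.71 in enh-/- libraries, and CAB39L had 1.64 and 1.19 against 1.03 and 0.896. In both genes the enh-/- values were below the WT values. For CAB39 the log2 fold change was -0.44 (adjusted p = 0.303, limma), and CAB39L is given as a description because it reached the filter only through WT. Of the SLC12 genes outside the 9 members, SLC12A8 had 3.79 and 3.90 against 2.01 and 2.74, a log2 fold change of -0.53 (adjusted p = 0.276, limma). SLC12A5, the neuronal potassium-chloride transporter, was at most 0.547 in any library.
The 4 genes of this list that were lower at an unadjusted p under 0.05 were named after their values had been seen. ATP1B1, the beta subunit of the sodium-potassium pump that drives these transporters, had 99.0 and 80.8 in WT against 49.5 and 35.7 in enh-/- libraries (log2 fold change -1.07, adjusted p = 0.0878, limma). LRRC8D, a subunit of the volume-regulated anion channel, had 19.3 and 16.7 against 7.14 and 9.40 (log2 fold change -1.04, adjusted p = 0.0831, limma). The essential subunit of that channel, LRRC8A, had 17.0 and 20.3 against 20.6 and 22.0, with a log2 fold change of 0.19 (adjusted p = 0.666, limma). AQP3, a water and glycerol channel, had 88.3 and 55.0 against 36.0 and 31.8 (log2 fold change -1.02, adjusted p = 0.114, limma). SLC5A3, the sodium-coupled myo-inositol transporter, had 23.3 and 23.7 against 5.07 and 14.4 (log2 fold change -1.34, adjusted p = 0.146, limma), and its log2 fold change was -0.67 without enh-/- library 1. In ATP1B1, LRRC8D, AQP3 and SLC5A3 the enh-/- libraries were both under the WT libraries.

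The low level of SLC12A3 was next set beside the genes around it. Within 500 kb, 18 genes outside SLC12A3 were tested, with a median log2 fold change of 0.10, and both enh-/- values lay below both WT values in 1 of them (5.56%, background 37.5%) and above both in 4 (22.2%, background 15.1%). Of the 18, 0 passed the adjusted threshold in limma, against a background of 1.21% lower and 0.248% higher. At an unadjusted p under 0.05, 0 were lower (background 16.9%) and 1 was higher, MT1E (5.56%, background 3.86%). Of the 18, 3 reached the filter through 1 genotype alone, PLLP through WT and ENSG00000261114 and ENSG00000261270 through enh-/-. Their log2 fold changes were -0.32, 0.53 and 0.74, and the libraries of each overlapped between genotypes. These 3 are part of the median and of the 18 over which the shares were taken, and no summary without them was made. The nearest tested gene before SLC12A3 was NUP93, a nuclear pore protein gene that ends 14921 bp from it. Its FPKM was 72.1 and 73.8 in WT against 73.2 and 51.4 in enh-/- libraries, with a log2 fold change of -0.25 (adjusted p = 0.611, limma). The nearest tested gene after it was HERPUD1, an endoplasmic reticulum stress gene 16292 bp away, with 38.5 and 30.8 against 63.4 and 27.1 and a log2 fold change of 0.26 (adjusted p = 0.744, limma). The libraries of both genes overlapped between genotypes.
A further gene, RPS24P17, a processed pseudogene of 423 bp on the plus strand from 56940446 to 56940868, lies inside SLC12A3. It overlaps no exon of the 6 annotated SLC12A3 transcripts. It had 3.76 and 3.71 in WT against 0 and 0.237 in enh-/- libraries, a log2 fold change of -2.09. It passed the filter on low values only through its WT level, so its values are a description with no test. It lies on the same strand as SLC12A3, and its reads cannot be told apart from unspliced SLC12A3 RNA or from reads of RPS24, so its value is uncertain.

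SLC12A3 is known for the distal nephron, so markers of that segment were examined. Of 9 such genes, 7 did not reach an FPKM of 1 in any of the 4 libraries, among them CALB1 and also PVALB and UMOD, which were listed at 0 in all of them, and the sum over the list was 31.7 and 15.6 in WT against 5.63 and 8.66 in enh-/- libraries. Most of the sum in WT libraries was TMEM52B, with 28.0 and 11.8 in WT against 0.480 and 2.99 in enh-/- libraries. Its libraries were separated in the same direction as those of SLC12A3, with a log2 fold change of -2.99 (SE 0.55, adjusted p = 0.0566, limma). CNNM2, a magnesium transport gene, had 3.47 and 3.32 against 4.10 and 5.19. The 4 kidney epithelium markers with a value, PAX2, PAX8, CDH16 and GATA3, were below 1 in every library. So were the 5 blood markers and the 3 endothelial markers with a value.
Of 7 fibroblast markers, 3 exceeded an FPKM of 1, and the sum over the list was 50.1 and 44.6 in WT against 56.1 and 71.1 in enh-/- libraries. COL3A1 had 33.3 and 31.9 against 45.8 and 55.7, COL1A1 had 15.5 and 11.4 against 10.1 and 14.9, and DCN had 1.33 and 1.24 against 0.110 and 0.392. The other 4, COL1A2, LUM, PDGFRA and THY1, were at most 0.104 in any library. The sums were thus nearly all COL3A1 and COL1A1. The part of these markers in the values of SLC12A3 was not tested.

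The 5 tested genes whose values over the 4 libraries were most like those of SLC12A3 were found by the Euclidean distance between log2(FPKM + 1) values, each gene centred on its own mean. They were ENSG00000260833 at a distance of 0.61, AKR1C1 (0.78), CTAG2 (1.005), TNNC1 (1.01) and ALPL (1.17). ENSG00000260833, which matched no symbol, had 25.04 and 19.6 in WT against 0 and 0.355 in enh-/- libraries. ALPL, the tissue-nonspecific alkaline phosphatase, had 78.3 and 78.8 against 3.53 and 6.42. TNNC1, a troponin gene of slow and cardiac muscle, had 93.7 and 139 against 4.37 and 7.30. CTAG2, a cancer-testis antigen gene, had 62.4 and 74.9 against 0.718 and 4.59. AKR1C1, an aldo-keto reductase gene with close relatives between which reads could be divided, had 181 and 202 against 8.64 and 8.01. These genes were picked by the same contrast as SLC12A3, and the smallest ratio of means among them was 15.8, for ALPL.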

How the data were processed

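RNA-seq of 4 libraries was used, with 2 per genotype (WT or C/EBPβ enh-/-) as the labels give it. The labels name total RNA and an RNA-seq library but also an extraction by chromatin immunoprecipitation, and how the RNA was extracted is therefore uncertain. Each file the authors deposited gives 1 FPKM value per gene. Their processing notes name hg19, TopHat2 2.0.13, Cufflinks and edgeR without roles, and whether libraries were scaled to each other is not given in the sources used here. Each file held 57815 entries. Without the chromosome Y pseudoautosomal entries there were 57768, of which 55535 matched a symbol. Coordinates came from GENCODE release 44 lifted to GRCh37, and upstream sequences from RefSeq on GRCh38.p14, with windows for 9 of 9 members.

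FPKM depends on the other genes of a library. The 5 highest genes held 18.8% to 22.3% of the total in WT and 27.4% to 35.1% in C/EBPβ enh-/- libraries. The number of fragments was read from the spacing of FPKM values under 0.3 in genes with a single transcript over 1000 nt. As 35.7% to 41.3% of these lay within 0.1 of a whole fragment, the depths are rough and were not turned into counts. With n = 2, the number of libraries limits the precision.

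Values were compared as log2(FPKM + 1) with limma 3.58.1 in R 4.3.3 (lmFit, eBayes with trend, no block), two-sided, with Benjamini-Hochberg adjustment over 12491 genes whose mean FPKM reached 1 and a threshold of 0.05. The fit was tested on simulated data. Python 3.11.15 (pandas 2.3.3, numpy 2.4.6, matplotlib 3.10.9) was used for tables and plots. The members and lists were chosen with earlier results of these data known. Named were the members, CEBPB, pathway genes with a direct role on the members or past a threshold, the nearest tested neighbours of SLC12A3 and those past the threshold (RPS24P17, described without a test), the 5 genes most like it and markers above an FPKM of 1. Markers below 1 are named as examples of each list, chosen after their values had been seen. LRRC8A, KLHL2 and the pathway genes at an unadjusted p under 0.05 were added after their values had been seen. Of the markers, 2 matched no entry (LHX1 and PECAM1). A gene of the pathway list and a marker are not reported here. Alternative settings were a replicate block, no trend, a pseudocount of 0.1, filters at 0 or at a mean FPKM of 5, rescaling to equal totals or upper quartiles, centring on medians, and omission of each library in turn.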

Additional observations from a re-analysis of the deposited data

How the results depend on the processing

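SLC12A3 was chosen by a difference too large for these alternatives to turn, so its values are a description, with a log2 fold change of -6.52 with a pseudocount of 0.1 and from -5.19 to -4.65 when single libraries were left out. Among the 7 other tested members, none passed the threshold under any alternative that tested it, with SLC12A2 and SLC12A9 not tested at a mean FPKM of at least 5. WNK1 had log2 fold changes from -0.97 to -0.74 and SLC12A7 from 1.86 to 2.27 under the 8 alternatives that kept all libraries. Centring on the median moved the median of all tested genes from -0.14 to 0.0345, and the same upper quartile moved it to 0.0348. The median of the 7 members turned to 0.11 with centring and to 0.13 with the upper quartile, as did OXSR1 (0.11 and 0.13) and, from -0.01, NEDD4L (0.16 and 0.18). Across fits without 1 library, the sign changed in SLC12A2 (-0.15 to 0.73), SLC12A4 (-0.42 to 0.50), SLC12A9 (-0.54 to 0.0312), OXSR1 (-0.25 to 0.12), NEDD4L (-0.64 to 0.62), HERPUD1 (-0.34 to 0.86) and NUP93 (-0.50 to 0.0059). Without single libraries, STK39 ran from -0.47 to -0.0648, KLHL2 was 0.30 without enh-/- library 1, and CUL3 was -0.18 without WT library 2. LRRC8A was 0.0675 without WT library 1 and 0.31 without WT library 2. In these fits the lone library of a genotype was assumed to vary like the others.

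Counts over all genes moved more. Against 151 lower and 31 higher genes, limma gave 0 and 0 without the filter (2657 and 1107 at an unadjusted p under 0.05), 20 higher with a mean FPKM of at least 5, 61 lower and 23 higher with the same total, 62 and 30 with the same upper quartile, and 68 and 31 with centring. Without 1 library, 9 to 22 were lower and 3 to 20 higher, with fewer samples in each fit. The cause of the other shifts was not tested. The replicate block gave 93 lower genes. The deviations of same-numbered libraries correlated at 0.0094 across genes, which are not independent replicates, so the libraries were taken to share only a number. The pathway list gave 0 calls under every alternative, with 26 genes tested, or 17 with a mean FPKM of at least 5 and 41 without the filter.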
